A study of Mus musculus with 6 samples.

Results

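The genes described here are 10 early contractile and actin-binding muscle genes, Actc1, Tnnt2, Tnni1, Myl7, Myl4, Acta2, Tagln, Csrp1, Cnn1 and Tpm1, taken by gene symbol from the 24975 genes of the count table. All 10 were expressed enough to be tested, among 11913 genes that were. RNA came from mesoderm cells sorted at embryonic day 7.5 from mouse embryos, 1000 cells per library. The Gli3R group was Mesp1-Cre/+;R26-Gli3R-IRES-Venus/+ and was sorted for Venus, and the control group was Mesp1-Cre/+;R26-tdTomato/+ and was sorted for tdTomato. Both groups thus carried Mesp1-Cre, in which the early mesoderm gene Mesp1 directs the Cre recombinase, and recombination marks the cells that expressed Mesp1 together with their descendants. Gli3R is a repressor form of the transcription factor Gli3 that blocks the response to Hedgehog signals. Each group had 3 libraries, 1 from each of 3 litters, with embryos pooled within a litter. The fluorescent reporter and the sorting colour differed between the groups in every litter, so their effects cannot be told apart from that of Gli3R.

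Muscle cells shorten when myosin filaments pull on actin filaments. In striated muscle, tropomyosin and the troponin complex on the actin filament make this depend on calcium, while in smooth muscle the phosphorylation of myosin light chains does so and calponin and transgelin bind the actin filament. The first heart cells arise from Mesp1-expressing mesoderm around the time of this collection, and several smooth muscle genes, Acta2 and Tagln among them, are also active in the early heart and in extraembryonic mesoderm. Serum response factor, which binds a sequence called the CArG box, is known to drive many of these genes.

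Library totals were 12635151, 7820726 and 6592417 counts in Gli3R replicates 1, 2 and 3 and 5481190, 10435790 and 7859087 counts in control replicates 1, 2 and 3. Control replicate 1, which had the fewest counts, stood apart on the leading principal component (35.0% of the variance), at 39.8 against -19.2 to 2.25 for the other libraries. Gli3, part of which the transgene carries, was at 43.6, 38.9 and 50.8 CPM in the Gli3R libraries and at 25.7, 29.5 and 34.3 CPM in the control libraries (CPM, counts scaled to a common library size), without overlap, and its log2 fold change of 0.57 ± 0.15 did not pass (adjusted p = 0.313, edgeR). All 10 genes of a mesoderm marker list were tested, with a summed level of 274 to 325 CPM in Gli3R and 279 to 298 CPM in control libraries. Hand1 made up most of that sum (mean 179.7 CPM in Gli3R and 133 CPM in control libraries), while 8 of the 10 had fitted changes below 0. T, the brachyury gene of the primitive streak, was at 8.06, 5.12 and 3.52 CPM in the Gli3R libraries and at 43.5, 16.3 and 7.97 CPM in the control libraries. Its log2 fold change of -1.93 ± 0.55 did not pass without a litter term, and T fell with litter as a block (adjusted p = 0.402 and 0.0373, edgeR). The streak and early mesoderm genes Mesp2 (-1.47), Lefty2 (-1.48) and Tbx6 (-1.38) were also lower in all 3 litters and did not pass in either fit. Of the 10 genes, 5 were lower in all 3 litters, against 15.3% of all tested genes. Mesp1 (-0.51 ± 0.35) and Eomes (-0.30 ± 0.60) were higher with Gli3R in litter 3, by log2 values of 0.81 and 1.27. Kdr (0.43 ± 0.19) and Hand1 had fitted values above 0. The skeletal muscle regulators Myf5, Myf6, Myod1 and Myog had no read in any library, and neither did the neural gene Sox1 or the trophoblast genes Elf5 and Tpbpa. Tnnt3 and Acta1, the 2 tested genes of the skeletal muscle list, had fitted values above 0 (0.75 ± 0.24 and 0.26 ± 0.13) and did not pass. Tnnt3 was at 14.4, 13.4 and 17.6 CPM in Gli3R and 5.74, 8.93 and 11.9 CPM in control libraries. The trophoblast genes Prl3d1 and Prl2c2 had 6 and 10 reads in Gli3R replicate 2. Elsewhere they had only 1 read, of Prl2c2 in control replicate 2.

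None of the 10 genes passed the test over all genes in either direction in the fit without a litter term. The fit called 0.0252% of all tested genes higher and 0.109% lower with Gli3R (edgeR's quasi-likelihood test, p adjusted by Benjamini-Hochberg, threshold 0.05). At an unadjusted p under 0.05, 5 of the 10 were higher (Csrp1, Actc1, Tagln, Cnn1 and Tnni1) and 0 were lower, while 6.86% of all tested genes reached that level in either direction. The fitted log2 fold change was above 0 for 8 genes and below 0 for Myl7 and Myl4. Its median was 0.64 over the 10 genes and -0.01 over all tested genes.

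With litter as a block, which follows the pairing given by the labels, Csrp1 rose and was called alone among the 10, while 0.0755% of all tested genes were called higher and 0.151% lower in that fit. At an unadjusted p under 0.05, it had 7 of the 10 higher and 1, Myl7, lower. Over all 11913 tested genes, 575 were higher and 465 lower at that level. Blocked log2 fold changes were 0.85 ± 0.23 for Tnnt2 and 0.69 ± 0.19 for Acta2, and neither passed. DESeq2 called Csrp1, Actc1 and Tagln higher (adjusted p = 5.67e-04, 0.0188 and 0.00417). The edgeR quasi-likelihood test without the filter on low counts called the same 3 genes (0.00205, 0.0242 and 0.00845), and limma-trend called 0 of the 10. These fits also called more of the whole table, 43 genes higher with DESeq2 and 49 without the filter, against 3.

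Levels did not overlap between the groups for 3 of the 10 genes. Actc1, Tnni1 and Csrp1 were above every control library in every Gli3R library, as were 5.62% of all tested genes, and 0 of the 10 were below in every library, against 6.33% of all tested genes. Within litters, 6 of the 10 were higher with Gli3R in all 3 litters, against 15.0% of all tested genes. Myl7 was lower in all 3 litters, against 15.3% of all tested genes.

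**Figure D1:**
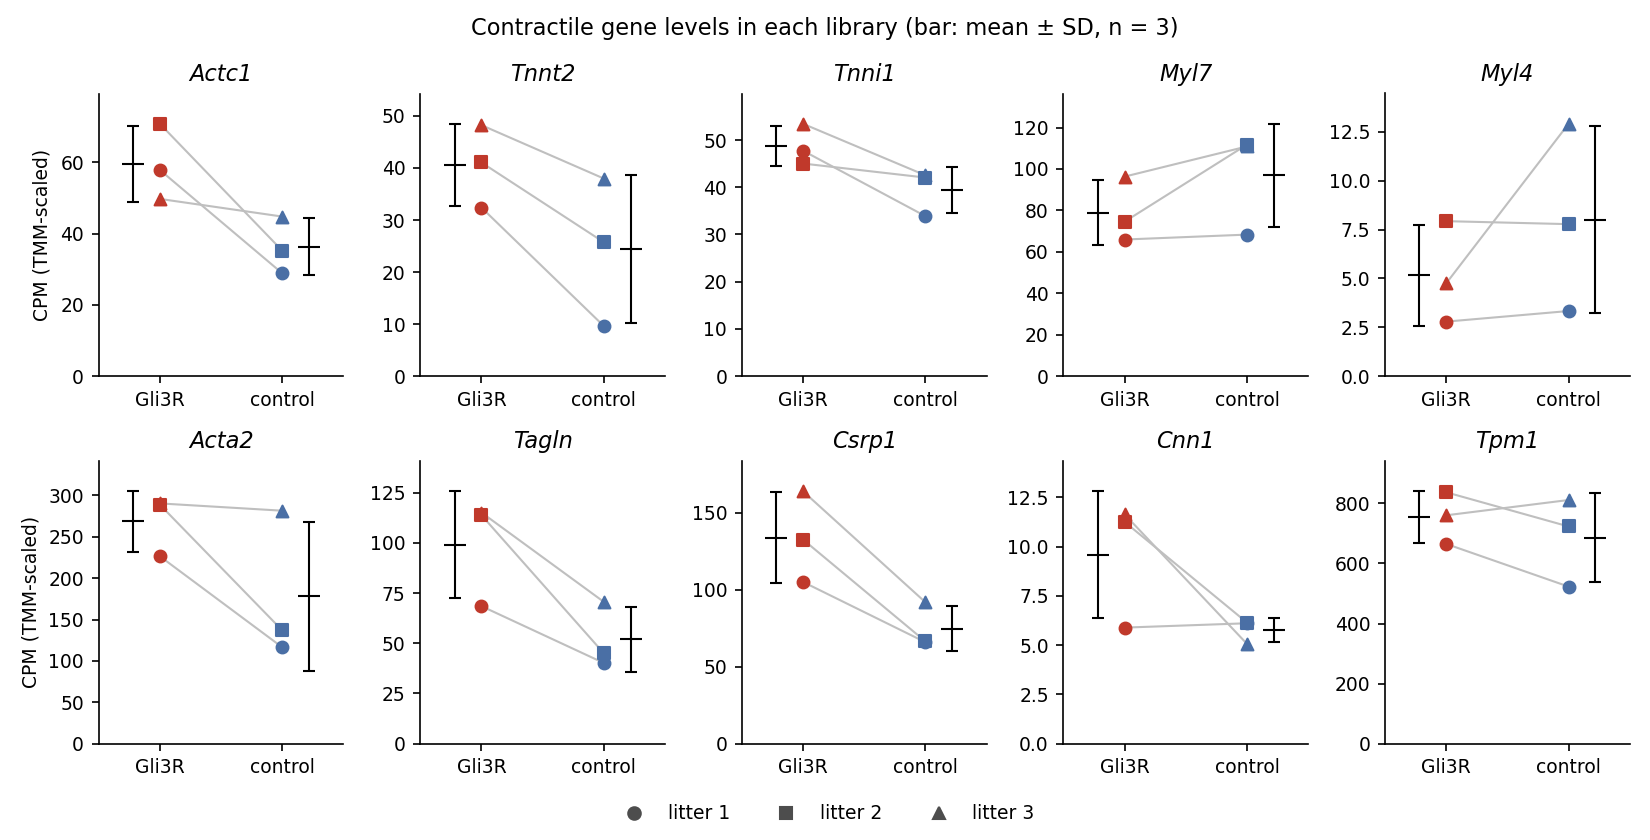
Level of each contractile gene in CPM (y axis, from 0) in each Gli3R and control library, with lines joining the libraries of a litter and black bars for the mean ± SD (n = 3). Csrp1 lies at 105 to 164 CPM in Gli3R and 65.9 to 91.9 CPM in control libraries, while most other genes overlap between the groups.

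The actins come first, since they form the filament on which the other proteins sit. Actc1, the cardiac actin gene that is also the first sarcomeric actin of the embryo (Entrez gene 11464), was at 57.9, 70.9 and 49.8 CPM in Gli3R replicates 1 to 3 and at 28.9, 35.2 and 44.8 CPM in the control replicates of the same litters. Every Gli3R library lay above every control library, but litter 3 differed by a log2 value of 0.15 and litters 1 and 2 by 1.00 and 1.01. Its mean was 59.5 ± 10.6 CPM in Gli3R and 36.3 ± 8.02 CPM in control libraries (SD, n = 3 each), a log2 fold change of 0.71 ± 0.18 (SE) that did not pass (adjusted p = 0.291, edgeR).

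Acta2, the smooth muscle actin gene (11475), was at 226, 289 and 290.3 CPM in the Gli3R libraries and at 116, 137 and 281 CPM in the control libraries. The groups overlapped, because control replicate 3 was above Gli3R replicate 1, while litters 1 and 2 differed by log2 values of 0.96 and 1.08. Its fitted log2 change of 0.59 ± 0.28 did not pass (adjusted p = 0.751, edgeR). It passed only when control replicate 3 was left out, at 1.08 ± 0.14 and an adjusted p of 0.0319, against 0.53 to 0.70 without any Gli3R library and 0.36 and 0.43 without control replicate 1 or 2.

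The promoters of both actin genes are shown because serum response factor is known to act on them, and that of Myl7 because it is a cardiac gene whose fitted change lay below 0. Sequences are from RefSeq on build GRCm38.p6, 250 bases before to 50 after the annotated start, 300 in all, 5′ to 3′. Capitals mark CArG boxes and boxes that differ from one by a single inner G or C.
Actc1 promoter, chr2:114052826-114053125, minus strand: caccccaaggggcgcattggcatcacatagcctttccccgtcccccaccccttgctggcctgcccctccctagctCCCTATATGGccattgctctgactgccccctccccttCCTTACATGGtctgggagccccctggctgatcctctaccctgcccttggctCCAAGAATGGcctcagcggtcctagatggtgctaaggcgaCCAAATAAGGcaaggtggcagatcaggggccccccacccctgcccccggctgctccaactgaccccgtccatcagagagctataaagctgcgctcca
Acta2 promoter, chr19:34255324-34255623, minus strand: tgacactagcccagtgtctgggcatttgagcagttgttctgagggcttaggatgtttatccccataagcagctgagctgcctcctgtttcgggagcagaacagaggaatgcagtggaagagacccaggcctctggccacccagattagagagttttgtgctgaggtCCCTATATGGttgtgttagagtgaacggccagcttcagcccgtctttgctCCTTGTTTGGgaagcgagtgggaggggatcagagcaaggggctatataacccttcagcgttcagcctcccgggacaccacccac
Myl7 promoter, chr11:5898733-5899032, minus strand: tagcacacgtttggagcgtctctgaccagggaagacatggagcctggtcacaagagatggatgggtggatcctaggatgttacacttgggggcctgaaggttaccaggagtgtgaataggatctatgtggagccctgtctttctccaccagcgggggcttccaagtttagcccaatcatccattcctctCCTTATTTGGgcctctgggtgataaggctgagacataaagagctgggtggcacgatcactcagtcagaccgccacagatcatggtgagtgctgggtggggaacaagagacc

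Of the 10 genes, 9 had promoters in the RefSeq table, 12 in all because some have more than 1 start, and Tagln had none there. An exact CArG box was found in the promoters of 2 genes, Actc1 and Myl7, and in 1.63% of all 32851 promoters. The box of Actc1 begins 47 bases before the annotated start and reads CCAAATAAGG. That of Myl7 begins 61 bases before the start and reads CCTTATTTGG, which is the same box on the other strand. Boxes with an inner G or C, a search added after the exact matches were seen, were found in the promoters of Actc1 (3) and Acta2 (2) and in 8.5% of all promoters. The box CCCTATATGG was present in both actin promoters, 175 bases before the start of Actc1 and 84 before that of Acta2. The Gli motif GACCACCCA was searched on both strands and occurred in 0 of the 12 promoters and in 0.253% of all promoters. None of these motifs overlapped another in the promoters of the 10 genes.

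Actins have near-identical protein sequence, and how reads matching several genes were counted is not given in the sources used here. Windows of 50 bases from the longest transcript were therefore compared with all other mouse transcripts. Of the Acta2 windows 0.352% also occurred in another gene, the cytoplasmic actin gene Actg1 among them, and of the Actc1 windows 0%.

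The troponins and tropomyosin make the striated actin filament answer to calcium. Tnnt2, the cardiac troponin T gene (21956), was at 32.4, 41.1 and 48.2 CPM in the Gli3R libraries and at 9.63, 25.7 and 38.0 CPM in the control libraries. The groups overlapped, and the difference was widest in litter 1, where control replicate 1 held 52 reads of the gene. The log2 fold change was 0.70 ± 0.36 with all libraries and 0.35 without control replicate 1, and neither passed (adjusted p = 0.814 and 0.715, edgeR).

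Tnni1, the slow skeletal troponin I gene that is also the embryonic form of the heart (21952), was at 47.7, 45.0 and 53.4 CPM in the Gli3R libraries and at 33.9, 42.1 and 42.5 CPM in the control libraries. All Gli3R libraries were higher, by a small margin, with means of 48.7 ± 4.30 CPM in Gli3R and 39.5 ± 4.86 CPM in control libraries (SD, n = 3 each). Its log2 fold change was 0.30 ± 0.13 (adjusted p = 0.712, edgeR).

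Tpm1, a tropomyosin gene with muscle and non-muscle transcripts that a count per gene does not separate (22003), was at 665, 837 and 760.2 CPM in the Gli3R libraries and at 523, 723 and 811 CPM in the control libraries. The groups overlapped, with Gli3R above its control in litters 1 and 2 and below it in litter 3. Its log2 fold change was 0.14 ± 0.15 with all libraries and -0.022 without control replicate 1, and neither passed (adjusted p = 0.991 and 0.973, edgeR).

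The atrial myosin light chain genes had fitted values below 0 with all libraries and under each alternative tried. Myl7, the regulatory light chain gene of the atria and of the early heart tube (17898), was at 65.9, 74.6 and 96.3 CPM in the Gli3R libraries and at 68.3, 112 and 111 CPM in the control libraries. Gli3R was lower in each litter, by log2 values of -0.05, -0.58 and -0.20, and the groups overlapped. Its fitted log2 change of -0.31 ± 0.20 did not pass (adjusted p = 0.904, edgeR), and it ran from -0.50 without control replicate 1 to -0.19 without control replicate 2.

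Myl4, the essential light chain gene of the atria and the embryonic heart (17896), was sparse, with 36, 62 and 31 reads in the Gli3R libraries and 18, 81 and 102 reads in the control libraries. This corresponds to 2.79, 7.93 and 4.75 CPM in Gli3R and 3.33, 7.78 and 12.9 CPM in control libraries. The difference rested mainly on litter 3, at a log2 value of -1.44, while litters 1 and 2 were at -0.26 and 0.03. The log2 fold change was -0.70 ± 0.48 (adjusted p = 0.929, edgeR).

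Ratios of Myl7 to Tnnt2 and to Actc1 in the same library separated the groups more than the level of Myl7 did. Both divisors had fitted values above 0, at 0.70 for Tnnt2 and 0.71 for Actc1. Actc1 alone already did not overlap between the groups, so the separation is not one of Myl7 alone. The ratio of Myl7 to Tnnt2 reads was 2.04, 1.82 and 2.0 in the Gli3R libraries and 7.10, 4.34 and 2.92 in the control libraries. The ratio of Myl7 to Actc1 reads was 1.14, 1.05 and 1.94 in the Gli3R libraries and 2.37, 3.17 and 2.47 in the control libraries. Neither ratio overlapped between the groups. These ratios were chosen after the values of the single genes were seen, so they carry no test.

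The genes that bind actin in smooth muscle included the 2 largest fitted values, those of Tagln and Csrp1. Tagln, the transgelin or SM22 alpha gene (21345), was at 68.5, 114 and 115 CPM in the Gli3R libraries and at 40.2, 45.0 and 70.6 CPM in the control libraries. Each litter was higher with Gli3R, by log2 values of 0.77, 1.34 and 0.71, although Gli3R replicate 1 lay just under control replicate 3. Its mean was 99.2 ± 26.6 CPM in Gli3R and 51.9 ± 16.4 CPM in control libraries (SD, n = 3 each), 1.89-fold higher in the fit.

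The log2 fold change of Tagln was 0.92 ± 0.24 without and 0.94 ± 0.13 with the litter block, and neither passed (adjusted p = 0.318 and 0.0502, edgeR). Transcripts of 2 genes run over Tagln on the opposite strand, the proprotein convertase gene Pcsk7, which shares 108 exonic bases with it, and Gm48529, which shares 1241. Of the Tagln windows of 50 bases, 48.3% occurred in one of them on the opposite strand. No source used here gives the strand setting of the counting, so reads of these genes cannot be told apart from those of Tagln in the shared part. Pcsk7 itself averaged 5.20 ± 0.14 CPM in Gli3R and 4.83 ± 0.81 CPM in control libraries (SD, n = 3 each), and Gm48529 was not analysed here.

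Csrp1, which encodes a LIM domain protein of the actin cytoskeleton and smooth muscle (13007), was at 105, 133 and 164 CPM in the Gli3R libraries and at 65.9, 66.4 and 91.9 CPM in the control libraries. The groups did not overlap, and the 3 litters were close to each other at log2 values of 0.67, 1.00 and 0.84. Its mean was 134 ± 29.5 CPM in Gli3R and 74.7 ± 14.8 CPM in control libraries (SD, n = 3 each). The log2 fold change was 0.84 ± 0.18 without the block and did not pass. With the litter block it was 0.84 ± 0.09 and Csrp1 rose (adjusted p = 0.189 and 0.0191, edgeR). Its call with the block was kept without litter 1 and lost without litter 2 or 3, at adjusted p-values of 1.48e-05, 0.233 and 0.140 from fits with 2 litters each.

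Cnn1, the calponin gene that marks contractile smooth muscle (12797), was sparse, with 76, 88 and 76 reads in the Gli3R libraries and 33, 64 and 40 reads in the control libraries. Scaled to depth this gave 5.89, 11.3 and 11.6 CPM in Gli3R and 6.11, 6.14 and 5.06 CPM in control libraries. Litters 2 and 3 were higher with Gli3R, and litter 1 was level at a log2 value of -0.05. Its fitted log2 change of 0.71 ± 0.28 did not pass (adjusted p = 0.694, edgeR).

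**Figure D2:**
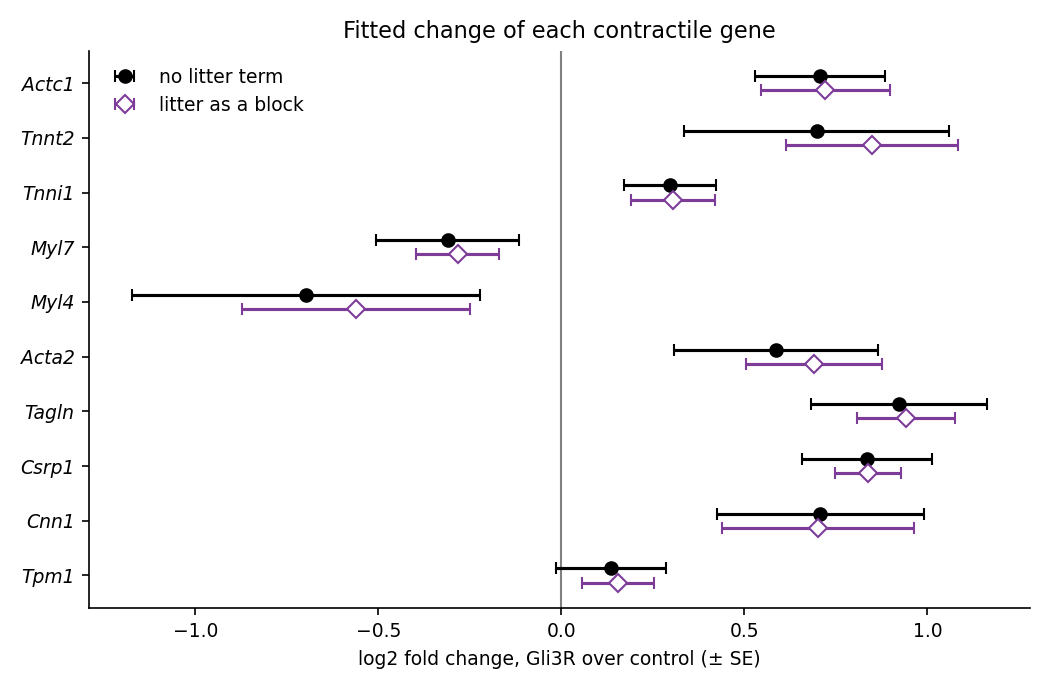
Fitted log2 fold change (x axis, Gli3R over control) of each contractile gene (y axis) with its SE, in the fit with no litter term (black circles) and with litter as a block (open diamonds). Csrp1 has the smallest error with the block, 0.84 ± 0.09, and Myl7 and Myl4 lie left of 0 in both fits.

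**Figure D3:**
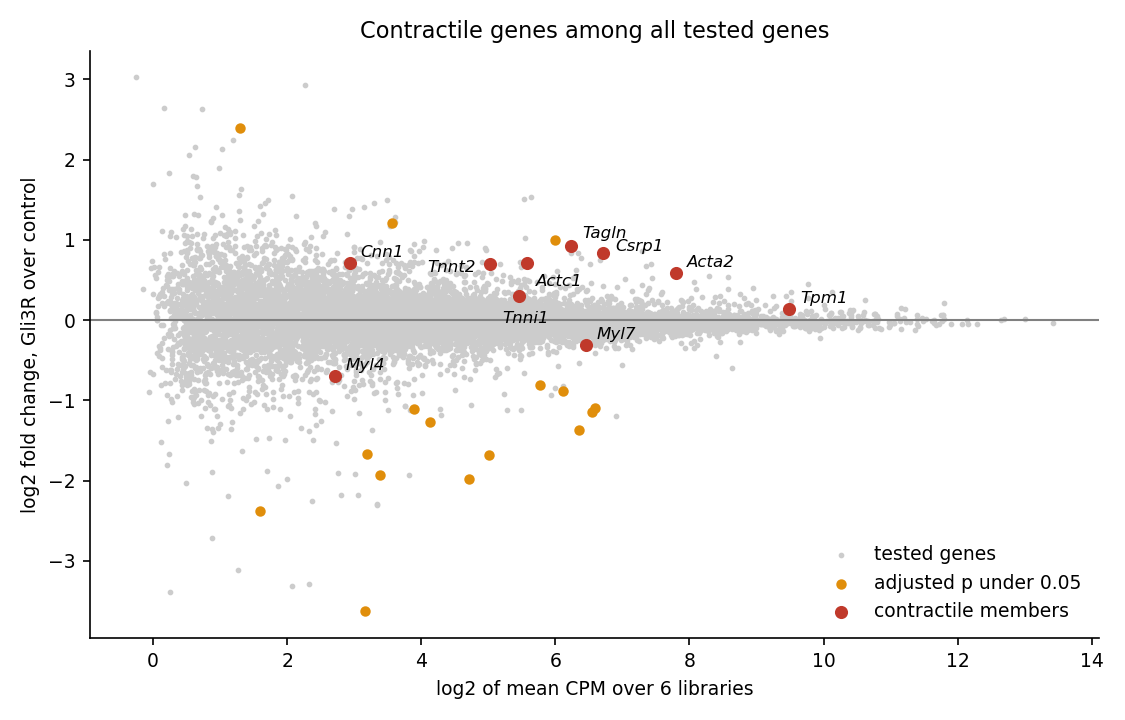
Log2 fold change (y axis, Gli3R over control) against the log2 of the mean CPM over 6 libraries (x axis) for the 11913 tested genes, with the genes that passed in orange and the contractile genes in red. Myl7 and Myl4 lie below 0 and the other 8 contractile genes above it, and none is among the genes that passed.

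Reads per kilobase of exon, scaled to library size (RPKM, exon lengths from GENCODE M21 on build GRCm38) were highest for Myl7, Tpm1 and Acta2, at 134 ± 26.5, 158 ± 18.0 and 132 ± 17.9 in Gli3R and 164 ± 42.1, 143 ± 30.9 and 87.6 ± 44.2 in control libraries (SD, n = 3 each). Neighbours in the control order Myl7, Tpm1 and Acta2 overlapped in their control libraries. Csrp1, Tagln, Tnni1, Actc1 and Tnnt2 followed, with means between 32.1 and 68.5 RPKM in Gli3R and between 19.4 and 38.2 RPKM in control libraries, and neighbours in that order overlapped in the control libraries. Myl4 and Cnn1 were lowest, at 4.29 ± 2.16 and 3.81 ± 1.27 RPKM in Gli3R and 6.66 ± 3.99 and 2.29 ± 0.24 RPKM in control libraries, and did not overlap there, while Myl4 overlapped with Tnnt2, its neighbour above. The order of the means was alike in both groups except that Tpm1 and Myl7, and Actc1 and Tnni1, changed places. Exon length was taken over all basic transcripts of a gene together. For Tpm1 it was 4780 bases, against 2890 in its longest coding transcript, so the place of Tpm1 in the order depends on that choice.

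Profiles over the 6 libraries were compared by the root mean square difference of log2 CPM, each gene set to its own mean. Among the 10 genes the closest pair was Tagln and Csrp1, at 0.16, and the farthest was Myl4 and Cnn1, at 0.92. Outside the 10, and among 9321 genes with at least 5 CPM, the profiles nearest to Actc1 were those of the integrin gene Itga3 (0.12), Sertad4 (0.14) and Arhgdib (0.14). Those nearest to Acta2 were the malic enzyme gene Me1 (0.06), the metalloproteinase inhibitor gene Timp2 (0.07) and the homeobox gene Pitx1 (0.09). With 6 libraries, which share the same litters and depth, likeness is a description only. Csrp1, Tnni1 and Tnnt2 lie in 1 stretch of chromosome 1, where their promoter windows run from 135719813 to 135837038 on build GRCm38.p6. Their profiles were not the closest, at 0.33 for Tnni1 and Csrp1, 0.49 for Tnnt2 and Csrp1 and 0.59 for Tnnt2 and Tnni1.

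Other muscle genes were read from lists. Of 20 other smooth muscle genes, 14 were tested and 0 passed in either direction (edgeR quasi-likelihood test), with 5 higher and 0 lower at an unadjusted p under 0.05. Fitted values were above 0 for 13 of the 14, with a median log2 fold change of 0.38 against -0.01 for all tested genes. Myl9, the smooth muscle regulatory light chain gene, averaged 62.9 CPM in Gli3R and 31.0 CPM in control libraries (1.02 ± 0.26). Tpm2, a tropomyosin gene, averaged 55.3 CPM in Gli3R and 33.3 CPM in control libraries (0.72 ± 0.19). Myl9 and Tpm2 did not overlap between the groups and passed with DESeq2 (adjusted p = 0.00212 and 0.0272), while limma-trend called 0 of the list. The LIM protein genes Pdlim7 and Csrp2 stood at 0.47 ± 0.14 and 0.52 ± 0.17. The other 6 genes, among them the smooth muscle myosin gene Myh11, stayed under the filter, with means of at most 1.74 CPM. All 6 had a lower mean with Gli3R. They summed to 1.38 to 3.64 CPM in the Gli3R libraries and 3.52 to 4.70 CPM in the control libraries.

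Of 29 other sarcomere and calcium handling genes, 8 were tested and 0 passed (edgeR quasi-likelihood test), with 2 higher and 1 lower at an unadjusted p under 0.05. Their median log2 fold change was 0.44, with 6 above and 2 below 0. Tnnc1, the cardiac troponin C gene, averaged 34.3 CPM in Gli3R and 17.3 CPM in control libraries (0.95 ± 0.30) and passed with DESeq2 (adjusted p = 0.0374), while limma-trend called 0. Popdc2, a membrane protein gene of the heart, averaged 40.6 CPM in Gli3R and 21.2 CPM in control libraries (0.89 ± 0.39), and the skeletal actin gene Acta1 stood at 0.26 ± 0.13. Myl2, the ventricular regulatory light chain gene, had a fitted value below 0, at 1.10 CPM in Gli3R and 3.90 CPM in control libraries (-1.63 ± 0.49). It was lower in every Gli3R library than in any control library, against 6.33% of all tested genes. Tnnc1 and Popdc2 were higher in every Gli3R library than in any control library, against 5.62%.

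The remaining 21 genes of this list, which had too few reads for the filter, summed to 5.88 to 9.14 CPM in the Gli3R libraries and 5.74 to 15.3 CPM in the control libraries. Of these, 12 had a lower and 8 a higher mean with Gli3R, and Xirp1 had no read. The cardiac myosin heavy chain genes Myh6 and Myh7 had 7 and 4 reads in the Gli3R libraries and 20 and 18 reads in the control libraries. In litter 1 they had 4 and 2 reads with Gli3R against 1 and 0 in the control, which had fewer counts in all. Scaled to depth this was 0.31 and 0.155 CPM against 0.19 and 0 CPM. Finding 0 reads in that control library allows up to 0.547 CPM, so litter 1 gives no direction for Myh6 and Myh7. These genes were named after their values were seen.

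Regulators of muscle genes showed no common direction. Of 17 transcription factors and cofactors, 14 were tested and 0 passed (edgeR quasi-likelihood test, and also DESeq2 and limma-trend), with 2 higher and 0 lower at an unadjusted p under 0.05. Fitted values were above 0 for 7 and below 0 for 7, with a median log2 fold change of 0.02. Srf, the gene of serum response factor, averaged 15.4 CPM in Gli3R and 10.4 CPM in control libraries, without overlap between the groups (0.57 ± 0.16). The other named ones were Hand1 (0.43 ± 0.14), the chromatin remodelling gene Smarcd3 (0.41 ± 0.21) and Mef2c (-0.47 ± 0.32). Myocd, which encodes the muscle coactivator of serum response factor, had 8 reads in the Gli3R and 29 in the control libraries. The cardiac factor genes Nkx2-5 and Tbx5 had 16 and 22 reads in the Gli3R and 29 and 21 in the control libraries. In litter 1 Nkx2-5 was higher with Gli3R, at 0.85 CPM against 0.37 CPM in the control, from 11 and 2 reads. Myocd, Nkx2-5 and Tbx5 are named after their values were seen.

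All 19 non-muscle relatives of these proteins were tested, and 0 passed (edgeR quasi-likelihood test, DESeq2 and limma-trend), with 6 higher and 0 lower at an unadjusted p under 0.05. Their median log2 fold change was 0.18, with 16 above and 3 below 0. Among them were Zyx, a focal adhesion gene (0.45 ± 0.15), the calponin gene Cnn2 (0.55 ± 0.21), the light chain gene Myl12a (0.23 ± 0.10) and Csrp2, which is also on the smooth muscle list.

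**Figure D4:**
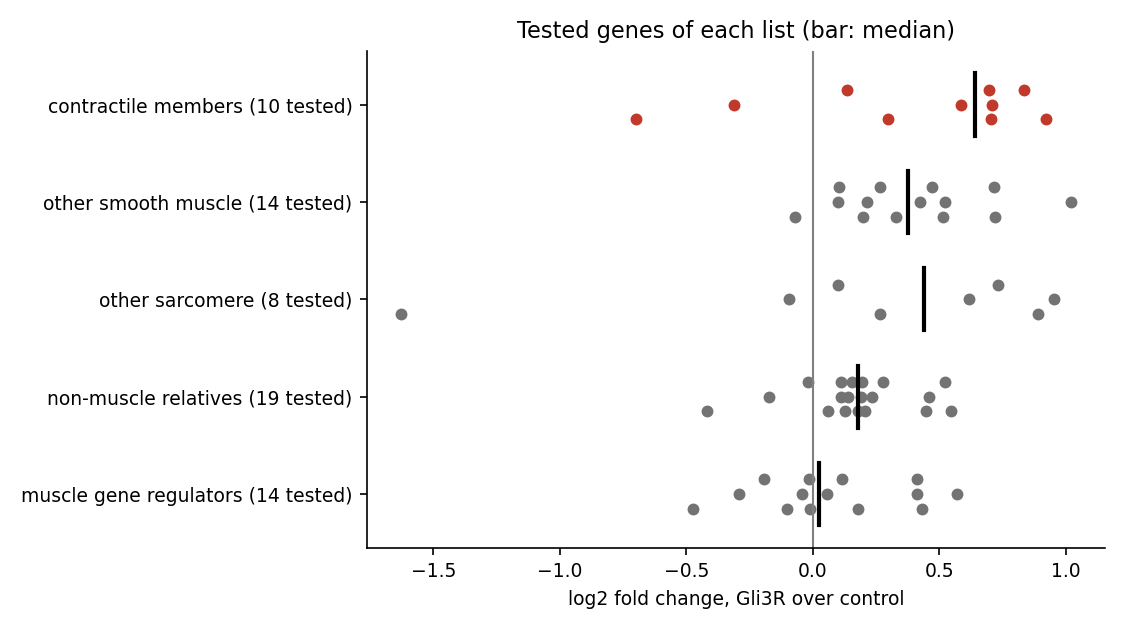
Log2 fold change (x axis, Gli3R over control) of each tested gene of the contractile group and of 4 lists of related genes (y axis), with a bar at each median. The medians are 0.64 for the contractile genes, 0.38, 0.44 and 0.18 for the smooth muscle, sarcomere and non-muscle lists and 0.02 for the regulators.

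Levels of markers of other cells were set beside these results. In bulk samples, fewer cells of a type and less RNA per cell cannot be told apart. Extraembryonic mesoderm markers, 13 genes of which 12 were tested and none was at 0, summed to 1454 to 1894 CPM in Gli3R and 1060 to 1603 CPM in control libraries. Of these, Ahnak rose and 0 fell without a litter term, and Ahnak, Msx1 and Bmp4 rose with litter as a block (adjusted p = 0.0121, 0.0121 and 0.0425, edgeR). Of the 12, 7 were higher with Gli3R in all 3 litters, against 15.0% of all tested genes. Foxf1 was lower in every Gli3R library than in any control library (-0.60 ± 0.17), without passing in either fit. The other fitted values below 0 were those of Tdo2 (-0.85 ± 0.29), Tbx4 (-0.38 ± 0.23) and Plac1 (-0.18 ± 0.20), which did not pass either. The highest level of the list was that of Pmp22 (mean 559 CPM in Gli3R and 424 CPM in control libraries). Endothelial markers summed to 152 to 167 CPM in Gli3R and 93.1 to 130.1 CPM in control libraries, with 0 of 10 at 0. All 7 tested endothelial genes had fitted values above 0, and 0 passed in either fit. Etv2 made up most of that sum (mean 96.0 CPM in Gli3R and 62.1 CPM in control libraries). Cdh5, Tie1 and Emcn, too low to be tested, had lower means with Gli3R. Genes of the serum and dissociation response summed to 150.1 to 208 CPM in Gli3R and 136 to 201 CPM in control libraries. Endoderm markers summed to 73.9 to 112 CPM in Gli3R and 66.1 to 100.4 CPM in control libraries. Cer1 made up most of that sum (mean 66.9 CPM in Gli3R and 62.4 CPM in control libraries). Of 6 tested endoderm genes, 5 had fitted values above 0 and Sox17 was below it (-0.35 ± 0.30). Under the filter, Foxa2 had 0, 0 and 0 reads in the Gli3R libraries and 3, 11 and 5 in the control libraries. Amn and Hnf4a also had lower means with Gli3R, and Apob and Cubn had higher ones. Erythroid markers summed to 205 to 697 CPM in Gli3R and 203 to 442 CPM in control libraries. The sum of the epiblast and ectoderm list, 922 to 1508 CPM in Gli3R and 777 to 1406 CPM in control libraries, was almost all Krt8 and Krt18, keratin genes of epithelia, which were higher with Gli3R in all 3 litters without passing. The other 4 tested genes of that list were lower in every Gli3R library than in any control library, against 6.33% of all tested genes. The median log2 fold change of the list was -1.11. Cdh1, the E-cadherin gene, averaged 0.453 CPM in Gli3R and 4.35 CPM in control libraries (-3.11 ± 0.53) and passed only with litter as a block (adjusted p = 0.0869 without and 0.0327 with it, edgeR). Hesx1 (-2.71 ± 0.55), Epcam (-1.12 ± 0.29) and Pou5f1 (-1.10 ± 0.30) did not pass in either fit. The sum of the trophoblast list, 154 to 218 CPM in Gli3R and 143 to 165 CPM in control libraries, was mostly Hand1, which is also on the mesoderm lists. The other 3 tested trophoblast genes had fitted values below 0, with Ascl2 (-1.11 ± 0.37) and Cdx2 (-0.56 ± 0.23) lower in all 3 litters, and none passed in either fit. The part of these cells in the differences above was not tested.

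Single libraries moved the fitted values without turning most of them. Without each library in turn, the 8 genes above 0 stayed above it except Tpm1, and Myl7 and Myl4 stayed below. Control replicate 3 was the highest control library for 8 of the 10 genes, all but Myl7 and Cnn1. Without it the log2 fold change was 1.21 for Tagln, 1.14 for Tnnt2, 1.01 for Csrp1 and 0.88 for Actc1, and those of Tpm1, Myl4 and Myl7 were 0.27, -0.20 and -0.21. The value of Myl7 was also -0.19 without Gli3R replicate 1 and -0.47 without Gli3R replicate 3. The value of Myl4 was -0.36 and -1.16 without Gli3R replicates 1 and 2, and that of Tpm1 was 0.22 and 0.05 without the same libraries. Control replicate 1 was the lowest control library for Actc1, Tnnt2, Tnni1, Acta2, Tagln and Tpm1 and also for Myl7, Myl4 and Csrp1. Without it the values were 0.58 for Actc1, 0.21 for Tnni1 and 0.78 for Tagln.

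**Figure D5:**
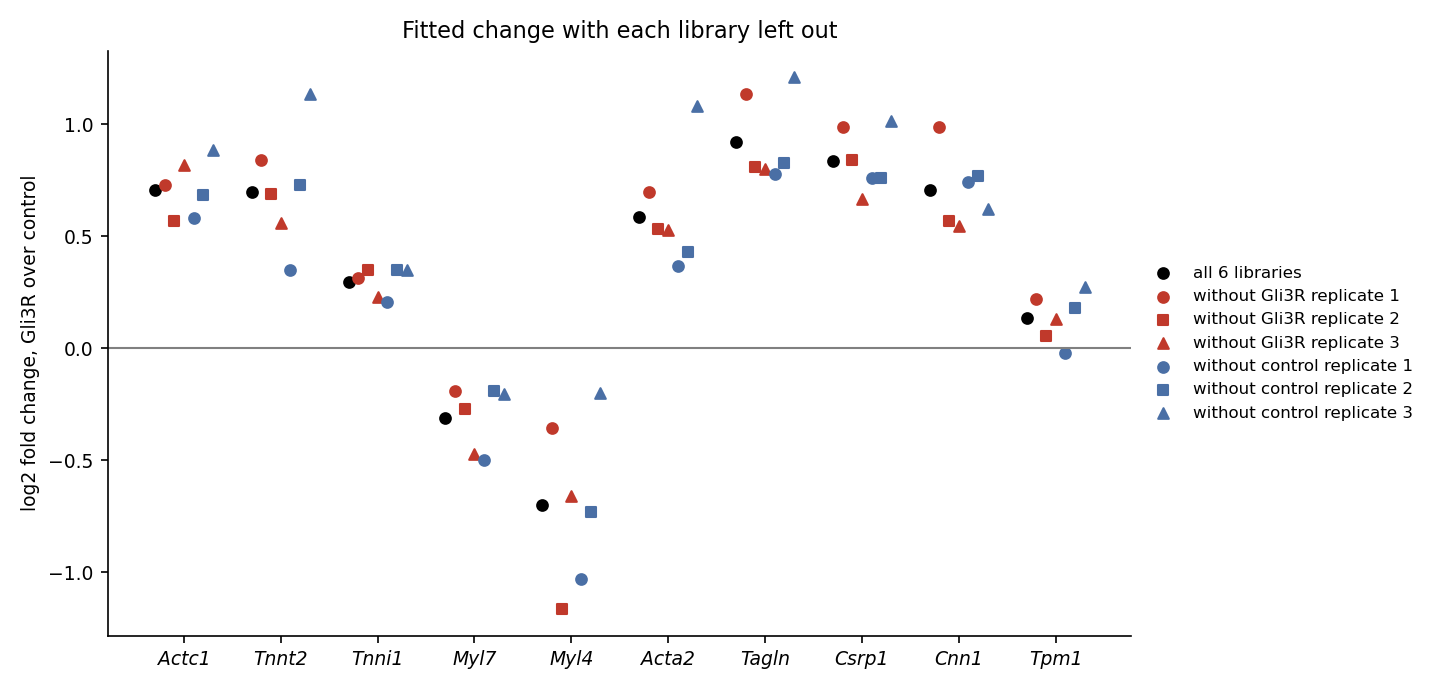
Log2 fold change (y axis, Gli3R over control) of each contractile gene (x axis) with all 6 libraries (black) and with each Gli3R (red) or control (blue) library left out, markers giving the replicate. Values of Tagln run from 0.78 to 1.21 and those of Csrp1 from 0.67 to 1.01, while that of Tpm1 falls just below 0 without control replicate 1.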

How the data were processed

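Each library has a raw count for every Entrez gene in the table the authors deposited. Tools listed in the submitters' processing notes, without roles, are TopHat2 2.0.14, Subread 1.4.6, featureCounts, FastQC and edgeR, with the build mm9. No source used here gives the annotation, the strand setting or the treatment of reads matching several genes. Sorting colours and litters are from the notes in the table. Kits named in the labels were SMARTer Ultra Low for cDNA and Nextera XT for libraries.

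The deposited counts were fitted with edgeR 4.0.16 (R 4.3.3): filterByExpr (minimum count 10), TMM scaling, and a two-sided quasi-likelihood test of Gli3R over control with Benjamini-Hochberg adjustment over 11913 genes and a threshold of 0.05. SE is the log2 fold change divided by the square root of F. The median log2 fold change of all genes stayed within 0.02 of 0 in every fit. One read was worth 0.0791 to 0.182 CPM. Finding 0 reads allows up to 3, or 0.237 to 0.547 CPM, for counting error only. Libraries differed pairwise by a chi-square per gene of at least 3.30, above sampling noise.

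Replicate numbers mark shared litters in the labels, and the 2 libraries of a litter deviated from their group means with correlations of 0.168 (litter 1), 0.187 (litter 2) and 0.0755 (litter 3). A second fit therefore held litter as a block. P-values measure the spread between pools of embryos. Other alternatives were DESeq2 1.42.0 size factors, library size alone, DESeq2, limma-trend (limma 3.58.1, prior count 2), no filter, at least 5 CPM in 3 libraries, each library left out and, added after the data were seen, each litter left out of the blocked fit.

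The members, gene lists and rules were chosen with earlier results of these data known. Named are the 10 members, up to 4 tested genes of each of the 4 muscle lists with the smallest p, and the 3 nearest profiles to Actc1 and Acta2. Promoters and exon lengths are of build GRCm38, not of mm9.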

Additional observations from a re-analysis of the deposited data

How the results depend on the processing

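Of the 10 contractile genes, 9 kept the sign of their fitted change under all 16 alternatives, and Tpm1 ran between -0.022 (without control replicate 1) and 0.27 (without control replicate 3) with a library left out. The count of contractile genes called higher was 0, and 1 with the litter block, 3 with DESeq2, 3 without the filter on low counts and 0 to 1 with a library left out (Acta2 without control replicate 3). The blocked fit gave 4 without litter 1 and 0 without litter 2 or 3. No contractile gene was called lower under any of these alternatives. Over all tested genes, 3 were higher and 13 lower. The replicate block gave 9 higher and 18 lower, DESeq2 43 and 51, no filter 49 and 59. Library size alone gave 5 higher and at least 5 CPM in 3 libraries gave 1. A library left out gave 0 to 2 higher and 0 to 16 lower, with 0 and 0 without Gli3R replicate 3, and a litter left out of the blocked fit gave 0 to 123 higher and 0 to 98 lower, the highest without litter 1. Calls from 2 litters rest on 1 residual degree of freedom and the spread shared across genes.

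For the sarcomere list, DESeq2 and no filter gave 1 higher (Tnnc1). For the smooth muscle list they gave 2 (Myl9 and Tpm2). The blocked fit without litter 1 called 3 sarcomere (Tnnc1, Popdc2 and Cryab), 4 smooth muscle (Csrp2, Pdlim7, Myl9 and Tpm2), 3 non-muscle (Cnn2, Csrp2 and Myl6) and 1 regulator gene (Hand1) higher and 1 smooth muscle gene (Cav1) lower. Every other alternative gave 0 calls in these lists, and the cause of the differences was not tested. Among the contractile genes, depth was lowest for Myl4 and Cnn1, with at most 102 reads in a library.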
